A study of Mus musculus with 13 samples.

Results

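The NR4A orphan nuclear receptors are 3 genes, Nr4a1, Nr4a2 and Nr4a3, taken by symbol from the 53278 gene symbols of the count tables. All 3 were present in all 13 libraries with at least 20 reads each, so all 3 passed the filter on low counts, which left 15690 genes for testing. The data are raw read counts from RNA of whole hearts of male C57Bl6 mice labelled WT, operated on at 12 weeks of age and sampled at 17 weeks, 5 weeks later. The IR edit hearts (n = 4) had IR, ischaemia followed by reperfusion of heart muscle, and an injection of a functional system for editing CaMKIIδ, a calcium-dependent kinase of heart muscle. The IR virus hearts (n = 3) had IR and a control virus, the IR hearts (n = 3) had IR with no injection, and the Sham hearts (n = 3) had sham surgery with no injection. The sources used here name no kind of virus, dose or promoter for the editor, and no time of day at which hearts were taken. Nothing in the labels ties a library to a named animal, so the p-values measure the spread between these samples, which may be partly technical.

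NR4A proteins are DNA-binding transcription factors of the nuclear receptor superfamily that act without a known classical hormone ligand, so the amount of protein made is a main control of their activity. Their genes are immediate early genes: transcription starts within minutes of calcium, cAMP, growth factor or stress signals, largely through CREB-type factors bound near the start site, and the transcripts are short-lived. In the heart they are known from adrenergic stimulation and pressure load in muscle cells, and from endothelial cells and macrophages. Nr4a1 (also called Nur77) has been linked to metabolism of muscle, Nr4a2 (Nurr1) is best known from dopamine neurons, and Nr4a3 (NOR-1) from vascular and heart muscle growth. The members were chosen by earlier results of these data, among them the high Nr4a1 count in IR edit against Sham hearts. Comparisons that involve IR edit hearts are therefore given for the members as values with no test, and tests of the members are given only among the other 3 groups. Those tests still use an estimate of spread shared by all libraries, IR edit hearts included.

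The 3 genes lie on different chromosomes of mm10. Nr4a1 spans 101254269 to 101274795 on the plus strand of chromosome 15, Nr4a2 spans 57106830 to 57124003 on the minus strand of chromosome 2, and Nr4a3 spans 48045153 to 48086447 on the plus strand of chromosome 4. In GENCODE release M21 each is protein-coding and no other annotated gene overlaps any of them. The sequences just before their start sites are shown because they hold a feature that the choice of members did not use. They are RefSeq promoter windows (GRCm38.p6, the assembly of mm10), cut to the bases before the start site that lie outside annotated exons. Capitals mark each TGACG, the core of the cAMP response element (CRE), on either strand, where CGTCA is the same core read on the other strand.
Nr4a1 (chr15:101266596-101266845, plus strand): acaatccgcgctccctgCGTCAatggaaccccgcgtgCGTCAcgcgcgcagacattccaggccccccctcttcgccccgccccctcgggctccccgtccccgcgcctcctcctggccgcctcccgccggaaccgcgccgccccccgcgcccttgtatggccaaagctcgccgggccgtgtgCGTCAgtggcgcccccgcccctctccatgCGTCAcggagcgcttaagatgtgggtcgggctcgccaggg
Nr4a2 (chr2:57124004-57124253, minus strand): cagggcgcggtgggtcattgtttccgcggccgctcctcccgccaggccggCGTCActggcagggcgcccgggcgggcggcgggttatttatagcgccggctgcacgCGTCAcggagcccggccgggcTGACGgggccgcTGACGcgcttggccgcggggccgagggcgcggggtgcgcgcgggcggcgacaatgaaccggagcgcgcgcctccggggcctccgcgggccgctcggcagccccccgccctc
Nr4a3 (chr4:48045055-48045152, plus strand): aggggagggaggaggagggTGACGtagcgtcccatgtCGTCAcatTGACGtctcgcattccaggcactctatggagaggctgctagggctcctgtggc

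Each of the 3 promoter windows held 4 TGACG cores. The Nr4a3 stretch above shows 3 of its 4 cores, and the remaining one lies at position -147 from the RefSeq start site, inside a GENCODE exon. Among all 32851 windows of 300 bases (250 before and 50 after the start site), 20.8% held at least 1 core and 0.231%, or 76 windows, held 4 or more. The number 4 was set after the members had been searched. The member windows had GC contents of 72.3%, 81.7% and 64.7% for Nr4a1, Nr4a2 and Nr4a3, and the core contains CG. Among the 6218 windows with at least 64.7% GC, 32.4% held a core and 0.563% held 4 or more. In Nr4a1 all 4 cores read CGTCA on the gene's strand, while Nr4a2 had cores in both orientations, as did Nr4a3. The full palindromic CRE, TGACGTCA, was not found in the 3 windows, against 1.79% of all windows. Nor were the NR4A monomer element AAAGGTCA (1.51% of windows, both strands), the MEF2 site (0.557%) or the CArG box of SRF (1.63%). These are matches of letters in one window per gene, not measured binding sites.

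**Figure D1:**
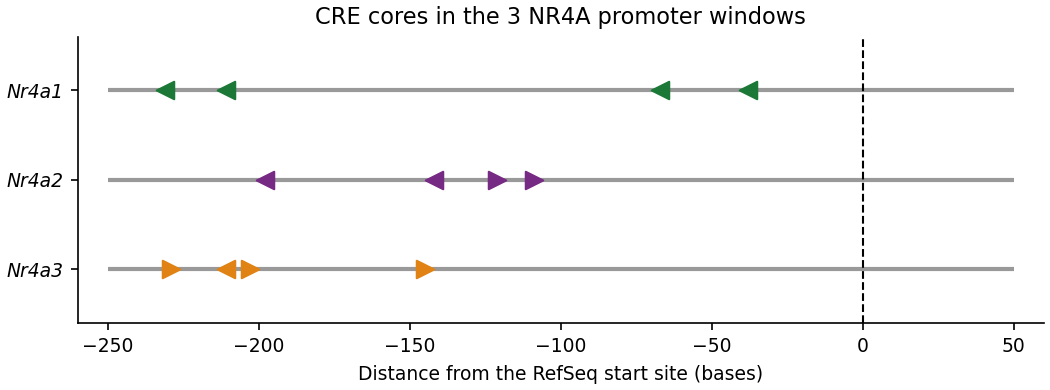
Positions of the CRE cores (both strands) in the RefSeq promoter windows of Nr4a1, Nr4a2 and Nr4a3, as distance in bases from the start site (dashed line). Triangles pointing right are cores on the gene's strand and triangles pointing left are cores on the other strand. Each window holds 4 cores, all before the start site.

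The libraries held 20634820 to 27265276 counts. The first principal component of all tested genes held 27.5% of the variance, and on it IR edit replicates 2 and 4, at -34 and -45.1, lay farther out than the other 11 hearts, which ranged from -10.2 to 26.5. Some of the results that rest on IR edit hearts are therefore also given without these 2 hearts. The others, among them the marker sums, family shares and nearest profiles, are given only with all IR edit hearts. Mitochondrial transcripts took 29.7% to 37.4% of counts in IR edit, 30.7% to 34.7% in IR virus, 34.4% to 35.6% in IR and 34.9% to 38.5% in Sham. Camk2d, the gene of the edited kinase, ran from 210 to 248 CPM in IR edit, 197 to 233 in IR virus, 235 to 245 in IR and 199 to 280 in Sham hearts, and gene counts do not show base edits.

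Nr4a1 and Nr4a3 stood far higher in IR edit hearts than in any other group, and Nr4a2 stood moderately higher. Mean Nr4a1 was 36.7 ± 12.3 CPM in IR edit (SD, n = 4), 3.38 ± 0.621 in IR virus, 4.5 ± 1.55 in IR and 3.04 ± 0.151 in Sham (n = 3 each). CPM are read counts scaled to library size, with the TMM correction for differences in library composition. Because whole hearts were sequenced, more cells with a transcript and more transcript per cell cannot be told apart.

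Nr4a1, the most abundant member, had 31.2, 24.3, 38.4 and 53 CPM in IR edit replicates 1 to 4. In IR virus replicates 1 to 3 it had 4.1, 2.98 and 3.07 CPM, in IR 3.03, 4.35 and 6.11 CPM, and in Sham 3.06, 3.19 and 2.89 CPM. All 4 IR edit hearts lay above all 9 other hearts, and the lowest of them (replicate 2) was 3.98 times the highest other heart (IR replicate 3). The raw reads behind these values were 543 to 1311 in IR edit, 71 to 103 in IR virus, 70 to 141 in IR and 61 to 81 in Sham. The Sham hearts differed by a factor of 1.1 between the highest and the lowest, the IR edit hearts by 2.18.

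The Nr4a3 level was 9.53, 9.68, 18.3 and 27.1 CPM in IR edit replicates 1 to 4, against 1.67, 1.85 and 2.61 CPM in IR virus, 2.16, 2 and 5.42 CPM in IR and 2.45, 1.72 and 2.22 CPM in Sham. Its 4 IR edit hearts also lay above all 9 others, by a factor of 1.76 between the lowest of them and IR replicate 3, the highest other heart. Of the 15690 genes tested, 1.77% had all 4 IR edit hearts above the other 9. IR replicates 1 and 2 were within the Sham range for Nr4a3, and the high IR mean of 3.2 ± 1.93 CPM (SD, n = 3) comes from replicate 3.

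Nr4a2, the least abundant member by CPM, had 2.19, 1.75, 4.61 and 3.16 CPM in IR edit replicates 1 to 4, against 1.43, 1.34 and 1.77 CPM in IR virus, 1.95, 1.62 and 1.3 CPM in IR and 1.02, 1.29 and 0.946 CPM in Sham. The lowest IR edit heart, replicate 2, lay inside the range of the IR and the IR virus hearts, so 3 of 4 IR edit hearts were above all 9 others. These values rest on 39 to 89 reads per IR edit library, 32 to 42 per IR virus library, 30 to 45 per IR library and 20 to 30 per Sham library.

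**Figure D2:**
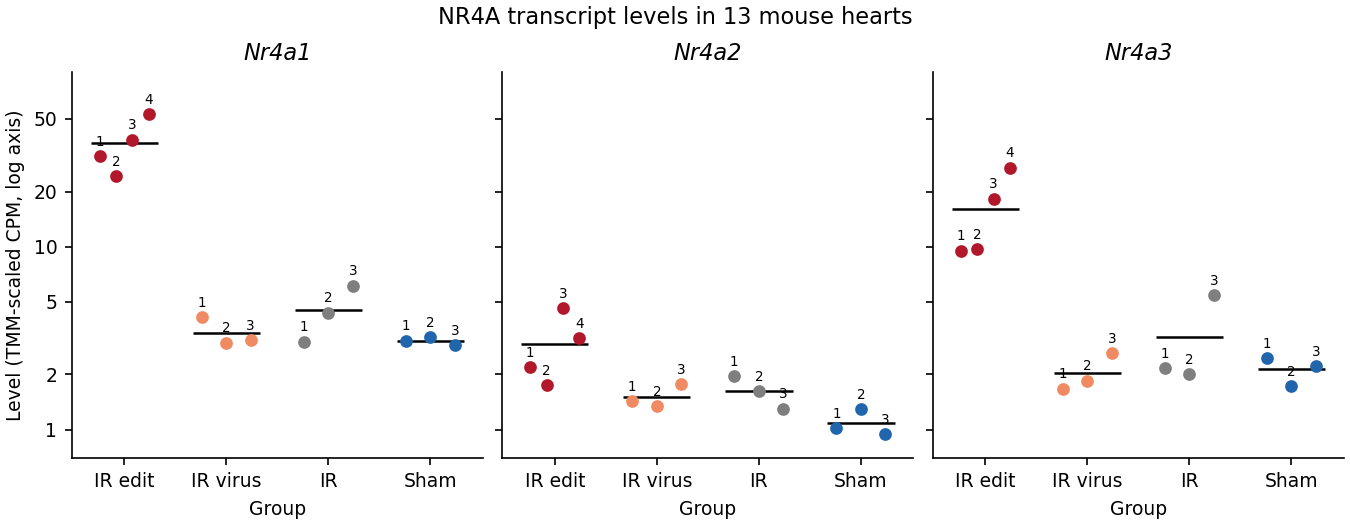
TMM-scaled CPM (log axis) of Nr4a1, Nr4a2 and Nr4a3 in each heart, by group. Each point is 1 heart with its replicate number, and the bar is the group mean. The IR edit hearts lie above all others for Nr4a1 (24.3 to 53 CPM) and Nr4a3 (9.53 to 27.1 CPM) and overlap the IR and IR virus hearts for Nr4a2.

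The order of hearts within IR edit was not the same for the 3 genes. Replicate 4 was highest for Nr4a1 and Nr4a3, replicate 3 was highest for Nr4a2, and replicate 2 was lowest for Nr4a1 and Nr4a2. Replicates 2 and 4, the hearts that stood apart on the first principal component, were the lowest and the highest for Nr4a1. In the IR group, replicate 3 was highest for Nr4a1 and Nr4a3 and lowest for Nr4a2.

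Against Sham, IR edit hearts had log2 fold changes of 3.59 ± 0.269 for Nr4a1, 1.41 ± 0.3 for Nr4a2 and 2.91 ± 0.411 for Nr4a3 (edgeR estimate ± SE), or 12-fold, 2.65-fold and 7.53-fold. Against IR virus the log2 fold changes were 3.44 ± 0.265, 0.93 ± 0.284 and 2.98 ± 0.412 for Nr4a1, Nr4a2 and Nr4a3, and against uninjected IR hearts 3.03 ± 0.257, 0.83 ± 0.283 and 2.34 ± 0.39. These 3 comparisons share the same 4 IR edit hearts. The ranks of the members from the highest among 15690 log2 fold changes, given as a description, were 9 for Nr4a1, 28 for Nr4a3 and 155 for Nr4a2 against Sham. Against IR virus they were 2, 5 and 179. Without IR edit replicates 2 and 4, a setting added after the data were seen, the log2 fold changes against IR virus were 3.35 for Nr4a1, 1.13 for Nr4a2 and 2.76 for Nr4a3.

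In hearts without the editing system, none of the members passed the test. IR against Sham gave log2 fold changes of 0.56 ± 0.303 for Nr4a1 (SE, adjusted p = 0.666), 0.58 ± 0.333 for Nr4a2 (adjusted p = 0.679) and 0.58 ± 0.466 for Nr4a3 (adjusted p = 0.78), from the quasi-likelihood test of edgeR with Benjamini-Hochberg adjustment over all genes. Of the 3 members 0 passed in edgeR, 0 passed in DESeq2 and 0 had an unadjusted p under 0.05, in a comparison where 0.0127% of genes passed in edgeR. With only the 9 libraries outside IR edit in the fit, 156 genes passed in place of 2, and no member's call changed. The 95% intervals of the log2 fold change ran from -0.08 to 1.21 for Nr4a1, -0.13 to 1.29 for Nr4a2 and -0.42 to 1.57 for Nr4a3. Without IR replicate 3 the Nr4a1 value was 0.28 and the Nr4a3 value -0.04, so 1 heart set much of the size of both. For Nr4a2, the 3 IR hearts lay above the 3 Sham hearts, by a narrow margin (1.3 against 1.29 CPM), as was the case for 7.94% of all genes.

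In IR virus against Sham, the log2 fold changes were 0.15 ± 0.311 for Nr4a1 (SE, adjusted p = 0.839), 0.48 ± 0.335 for Nr4a2 (adjusted p = 0.504) and -0.07 ± 0.49 for Nr4a3 (adjusted p = 0.96), all from edgeR. Their 95% intervals ran from -0.51 to 0.82, from -0.24 to 1.19 and from -1.11 to 0.97. The signs of the Nr4a1 and Nr4a3 values turned without IR virus replicate 1 (-0.01 and 0.06), and that of Nr4a3 also without Sham replicate 1 (0.04). Nr4a2 again separated the groups, with IR virus hearts at 1.34 to 1.77 CPM and Sham hearts at 0.946 to 1.29 CPM, a separation that 11.0% of all genes showed in this direction. IR virus against IR gave -0.41 ± 0.297 for Nr4a1, -0.10 ± 0.318 for Nr4a2 and -0.65 ± 0.467 for Nr4a3 (adjusted p = 0.962, 0.985 and 0.962 by the same edgeR test). In each of these comparisons 0 of 3 members passed in edgeR or in DESeq2, and 0 had an unadjusted p under 0.05. Among all genes 0.0127% passed in edgeR in IR virus against Sham and 0% in IR virus against IR. With only the 9 libraries outside IR edit in the fit, 313 and 0 genes passed, and no member's call changed.

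**Figure D3:**
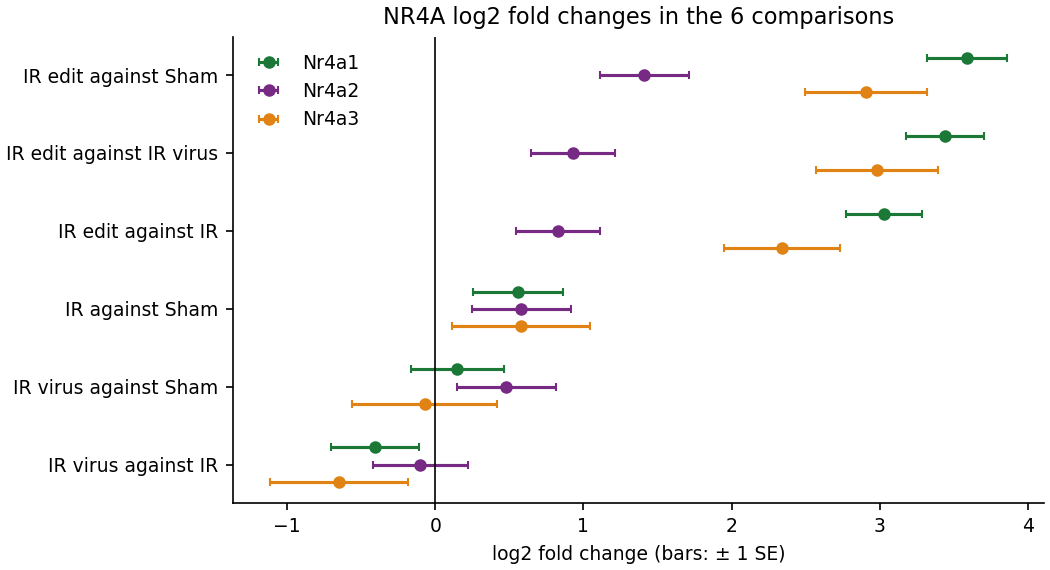
Log2 fold changes of the 3 NR4A genes in the 6 comparisons, with bars of ± 1 SE from the edgeR fit. In the 3 comparisons with IR edit hearts, Nr4a1 lies between 3.03 and 3.59, Nr4a3 between 2.34 and 2.98 and Nr4a2 between 0.83 and 1.41, and in the other 3 all values lie between -0.65 and 0.58.

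Levels of different genes can be set side by side only per transcript length, for which the merged exons of GENCODE M21 were used (3509 bases for Nr4a1, 4059 for Nr4a2, 5987 for Nr4a3). Per kilobase, the summed level of the family was 13.9 ± 5.05 CPM per kb in IR edit (SD, n = 4), 1.68 ± 0.166 in IR virus, 2.22 ± 0.665 in IR and 1.49 ± 0.0566 in Sham (n = 3 each). Nr4a1 made up 72.3% to 80.6% of that sum in IR edit hearts, 50.1% to 64.9% in IR virus, 50.6% to 62.8% in IR and 56.9% to 60% in Sham. The Nr4a2 share was 3.81% to 7.49% in IR edit hearts, against 19.6% to 24.9% in IR virus, 10.8% to 28.1% in IR and 16.3% to 21% in Sham. For Nr4a3 the shares overlapped, at 14.5% to 22.1% in IR edit, 15.5% to 24.9% in IR virus, 17% to 30.5% in IR and 19% to 26.7% in Sham. The pool of IR edit hearts thus held a larger share of Nr4a1 and a smaller share of Nr4a2 than that of any other heart. These shares follow from the levels described above and are not an independent measure.

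**Figure D4:**
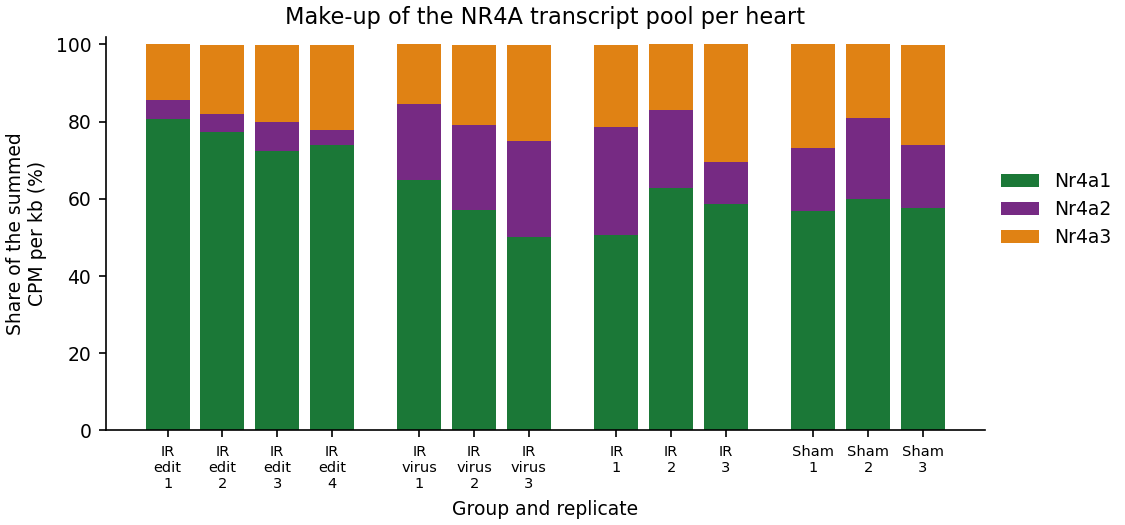
Share of each NR4A gene in the summed CPM per kilobase of merged exon, in percent, for each of the 13 hearts. Nr4a1 holds 72.3% to 80.6% of the pool in the 4 IR edit hearts and at most 64.9% in the other 9.

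Genes with the most similar profile were found as those with the smallest root-mean-square distance in log2 CPM over the 13 hearts, each gene centred on its own mean. The search covered 11971 genes with a mean of at least 1 CPM, after symbols of predicted genes and clones (Gm, Rik, LOC, AC, AL and BC) were left out. That mean was over all 13 hearts, so a gene could enter through its IR edit level alone. The gene nearest to Nr4a1 was Nr4a3, at 0.46, and a flat profile would lie at 1.56. After it came Hspa1a, an inducible HSP70 chaperone (0.52), Pnpla3, a lipid droplet protein (0.56), the early transcription factors Atf3 and Fos (0.61 each), and Lpar3, a receptor for lysophosphatidic acid (0.63). Pnpla3 averaged 7.41 ± 1.22 CPM in IR edit (SD, n = 4) and 1.15 ± 0.308 in IR virus (n = 3). The Lpar3 level was 4.23 ± 0.669 CPM in IR edit and 0.481 ± 0.213 in IR virus hearts. Lpar3 and Hspa1a averaged below 1 CPM in each group outside IR edit. They reached the minimum for the search only through IR edit hearts, so their likeness is partly set by it.

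For Nr4a3 the nearest genes were Hspa1a (0.36), Atf3 (0.38), Nr4a1 (0.46), Sik1, a kinase induced by cAMP (0.56), Hspa1b, another inducible HSP70 gene (0.58), and Fos (0.59), with a flat profile at 1.32. Hspa1a and Hspa1b are nearly identical in sequence, so the counting of reads between them is uncertain. Hspa1b, too, reached the minimum of 1 CPM only through IR edit hearts, with group means of 0.922 to 0.977 CPM elsewhere. The profile of Nr4a2 was shallower and had other neighbours: Wif1, a secreted Wnt inhibitor (0.29), Hand2, a transcription factor of heart development (0.33), the small GTPases Gem (0.34) and Rasd1 (0.37), Ubtd2 (0.35) and the adenylyl cyclase Adcy1 (0.37), with a flat profile at 0.58. These genes were picked for their likeness, and their levels are a description.

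Other early response genes were higher together with the NR4A genes. Of 23 tested members of a list of 26 (AP-1, EGR and KLF factors and their companions), 15 rose and 1 fell in IR edit against Sham, where 4.61% of all genes rose and 3.40% fell. The list's median log2 fold change was 0.72, against 0.00 over all genes. Fosl2, an AP-1 subunit, had 53.2, 52.2, 63.7 and 89 CPM in IR edit replicates 1 to 4, against 22.4, 22.3 and 20.4 CPM in Sham, and rose by 1.57 ± 0.153 on the log2 scale (SE, adjusted p = 7.56e-05, edgeR). The other leading members were Fos, the AP-1 partner of Jun (2.70 ± 0.368), Klf4, a zinc finger factor of vessel cells (0.78 ± 0.106), and Atf3, a stress-induced repressor (2.49 ± 0.387), with edgeR adjusted p = 0.00111, 0.00111 and 0.00229. The member that fell was Fosl1 (-0.66 ± 0.18, adjusted p = 0.0376 in edgeR), another AP-1 subunit, which DESeq2 did not call. With IR edit replicates 2 and 4 left out, 6 of the 23 passed against Sham, 5 against IR virus and 6 against IR. Among all genes 158, 90 and 78 passed in that setting.

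Against IR virus, 8 of the 23 tested early response genes rose and Fosl1 fell, where 0.962% of all genes rose and 1.06% fell, and the median was 0.51 against -0.01 over all genes. Fosl2 (1.51 ± 0.152), Klf4 (0.95 ± 0.107), Atf3 (2.70 ± 0.394) and Fos (2.19 ± 0.347) had the smallest p, with edgeR adjusted p = 0.000101, 0.000231, 0.00246 and 0.00464. Against uninjected IR hearts 8 rose and 0 fell, where 0.784% of all genes rose and 0.637% fell, with Fosl2 and Klf4 again the members with the smallest p. In IR against Sham and in IR virus against Sham 0 of the 23 passed in edgeR, where 0.0127% of all genes passed in each. At an unadjusted p under 0.05 there were 4 and 1, and DESeq2 called 0 and 1. Fos, Atf3 and Fosl2 shared with Nr4a1 and Nr4a3 their highest value in IR edit replicate 4, at 11, 23.4 and 89 CPM. In IR replicate 3, the heart with the highest Nr4a1 and Nr4a3 outside IR edit, Fos was at 1.08 CPM, within the Sham range of 0.71 to 1.13 CPM. Atf3 was at 2.69 CPM in that heart, the highest of the 9 hearts outside IR edit, where the other 8 reached at most 2.49 CPM.

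Genes known as targets of cAMP and CREB signalling, which also drives the NR4A promoters, had 7 of 14 tested members (16 listed) higher and 0 lower in IR edit against Sham in edgeR, where 4.61% of all genes rose and 3.40% fell, with a median log2 fold change of 0.39. DESeq2 called 7 higher and 1 lower. Sik1 had 59.6, 38.5, 70.8 and 66.8 CPM in IR edit replicates 1 to 4, against 19.7, 13 and 13.1 CPM in Sham, and rose by 1.95 ± 0.195 (SE, adjusted p = 7.93e-05, edgeR). The list's other leading members, Irs2, an adaptor of insulin signalling, Pde4b, a cAMP phosphodiesterase, and Gem, rose by 1.49 ± 0.268, 0.38 ± 0.0701 and 0.76 ± 0.163. Against IR virus, where 0.962% of all genes rose, 3 rose and 0 fell in edgeR: Sik1 (1.91 ± 0.194), Pde4b (0.46 ± 0.0703) and Irs2 (1.09 ± 0.26), with edgeR adjusted p = 0.000101, 0.00364 and 0.0424. The same 3 genes rose against IR, where 0.784% of all genes rose. The Irs2 call was lost in 7 of 13 fits that left out 1 library against IR virus (largest adjusted p 0.176 in edgeR) and in 8 of 13 against IR (0.203). Those libraries were IR edit replicate 4, the 3 IR virus hearts, IR replicates 1 and 2 and Sham replicate 2, and against IR also IR replicate 3. The Pde4b call against IR was lost in 4 of 13 (0.14), without IR edit replicate 2 or an IR heart. With both left out, IR edit replicates 2 and 4, 4 of the 14 passed against Sham, where 158 of all genes passed. Gem did not pass there (adjusted p = 0.134, edgeR).

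The factors that control NR4A transcription, up or down (CREB, CRTC, MEF2, SRF and NFAT factors, class IIa histone deacetylases, CaM kinases and calcineurin), moved little. Of 29 tested members of 30, 2 rose and 1 fell in IR edit against Sham, and the median was 0.04. These counts are near the shares over all genes, 4.61% higher and 3.40% lower. The 3 genes were Srf, serum response factor (0.41 ± 0.113, adjusted p = 0.0389), Camk2b, the beta subunit of CaM kinase II (0.34 ± 0.0917, adjusted p = 0.0354), and Ppp3cc, a catalytic subunit of calcineurin (-0.28 ± 0.0818, adjusted p = 0.0475), by edgeR. Each was lost when single libraries were left out, Camk2b in 8, Srf in 7 and Ppp3cc in 10 of 13 fits. Among these were the fits without IR edit replicate 1, 2 or 4. Without both IR edit replicates 2 and 4, 0 of the 29 passed, where 158 of all genes passed. Against IR virus 0 of 29 passed in edgeR, where 0.962% of all genes rose and 1.06% fell. Of the 29, 2 had an unadjusted p under 0.05 and 1 passed in DESeq2. Atf1, a CREB relative, had the smallest p there, with a log2 fold change of 0.25 ± 0.0632 (adjusted p = 0.054, edgeR).

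Dimer partners and coregulators of NR4A proteins (RXR receptors, coactivators, corepressors and NR4A kinases, 22 genes tested) had 1 member higher in IR edit against Sham, a share near the 4.61% over all genes. It was Bcl2, an antiapoptotic protein that Nr4a1 can bind at mitochondria, at 24.7, 36, 17.4 and 33.2 CPM in IR edit and 11, 14.6 and 14.7 CPM in Sham (1.06 ± 0.189, adjusted p = 0.00517, edgeR). Against IR virus 0 of 22 passed in edgeR, where 0.962% of all genes rose and 1.06% fell. In DESeq2 0 passed, and 3 had an unadjusted p under 0.05 in edgeR. Bcl2 was at 0.33 ± 0.181 in that comparison, with IR virus hearts at 21.6 to 23.2 CPM. Without IR edit replicates 2 and 4, Bcl2 stood at 0.66 against Sham (adjusted p = 0.0438, edgeR). In IR edit against IR virus, with all hearts, the member with the smallest p was Mapk3, the kinase ERK1 (-0.24 ± 0.108, adjusted p = 0.305, edgeR).

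Genes reported elsewhere as NR4A targets, among them muscle genes of glucose use, had no member that passed as higher in IR edit hearts. That count is near the small share of all genes that rose. Of 25 tested members of 32, 0 rose and 3 fell in IR edit against Sham in edgeR, where 4.61% of all genes rose and 3.40% fell, with a median of 0.00. In DESeq2 0 rose and 2 fell, and 8 members had an unadjusted p under 0.05 in edgeR. The 3 were Tnfsf10, the death ligand TRAIL (-0.70 ± 0.173), Fbp2, the muscle fructose bisphosphatase (-0.67 ± 0.187), and Ucp3, a mitochondrial carrier of muscle (-0.91 ± 0.263), with edgeR adjusted p = 0.0246, 0.0402 and 0.0461. Ucp3 and Tnfsf10 also fell against IR virus (-1.59 ± 0.26 and -0.77 ± 0.173, adjusted p = 0.00621 and 0.0307 in edgeR) and against IR (-1.40 ± 0.261 and -0.92 ± 0.172). They were the 2 of 25 that fell in each comparison, where 1.06% and 0.637% of all genes fell. Without IR edit replicates 2 and 4 the Tnfsf10 values were -0.40 against Sham (adjusted p = 0.137), -0.48 against IR virus (0.0894) and -0.62 against IR (0.0251). Without the same hearts the value of Fbp2 was -0.40 against Sham (adjusted p = 0.429, edgeR), and that of Ucp3 was -0.53 against Sham (0.458) and -1.02 against IR (0.108).

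Among the other nuclear receptors, 35 of 45 listed were tested, and 1 rose and 2 fell in IR edit against Sham. Both counts are near the shares over all genes (4.61% higher, 3.40% lower). Nr1d2, the clock repressor REV-ERBβ, was at 99, 91.2, 133 and 85.5 CPM in IR edit and 204, 196 and 224 CPM in Sham (-1.03 ± 0.116, adjusted p = 0.000211, edgeR). Nr2f2, the venous and atrial factor COUP-TFII, fell by 0.33 on the log2 scale (adjusted p = 0.0275), and Rorb, a retinoid-related orphan receptor, rose by 1.27 ± 0.331 (adjusted p = 0.0307). The Rorb value is the highest among the 35, below the Nr4a2 value of 1.41. Against IR virus 0 rose and 2 fell, where 0.962% of all genes rose and 1.06% fell. The 2 were Nr1d2 (-0.85 ± 0.116) and Nr2f2 (-0.48 ± 0.0825), with adjusted p = 0.00152 and 0.00837 in edgeR. Without IR edit replicates 2 and 4, Nr2f2 and Rorb did not pass against Sham (adjusted p = 0.269 and 0.359 in edgeR), nor did Nr2f2 against IR virus (0.0849).

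Core clock genes moved with the IR edit group as the NR4A genes did. Of 18 tested, 3 rose and 9 fell in IR edit against Sham, where 4.61% of all genes rose and 3.40% fell. Against IR virus 3 rose and 9 fell, where the shares over all genes were 0.962% and 1.06%. With IR edit replicates 2 and 4 left out, 9 and 8 of the 18 passed, where 158 and 90 of all genes passed. Dbp, a clock output factor, was at 7.09, 5.02, 7.66 and 4.01 CPM in IR edit, 46.1, 44.9 and 34.4 CPM in IR virus and 28.7, 35.1 and 25.3 CPM in Sham hearts, with no overlap (-2.33 ± 0.185 against Sham, adjusted p = 1.1e-05, and -2.82 ± 0.184 against IR virus, 2.13e-06, in edgeR). Per3, a clock repressor, was lower (-1.81 ± 0.195 and -1.89 ± 0.195 against Sham and IR virus), as was the repressor Bhlhe41 (-0.54 ± 0.106 and -0.94 ± 0.105), and the activator Npas2 was higher (1.84 ± 0.246 and 1.68 ± 0.242). In IR and IR virus against Sham 0 of the 18 passed in edgeR, where 0.0127% of all genes passed in each. At an unadjusted p under 0.05 there were 1 and 4, and DESeq2 called 0 in both. The part of these clock differences in the NR4A levels was not tested.

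**Figure D5:**
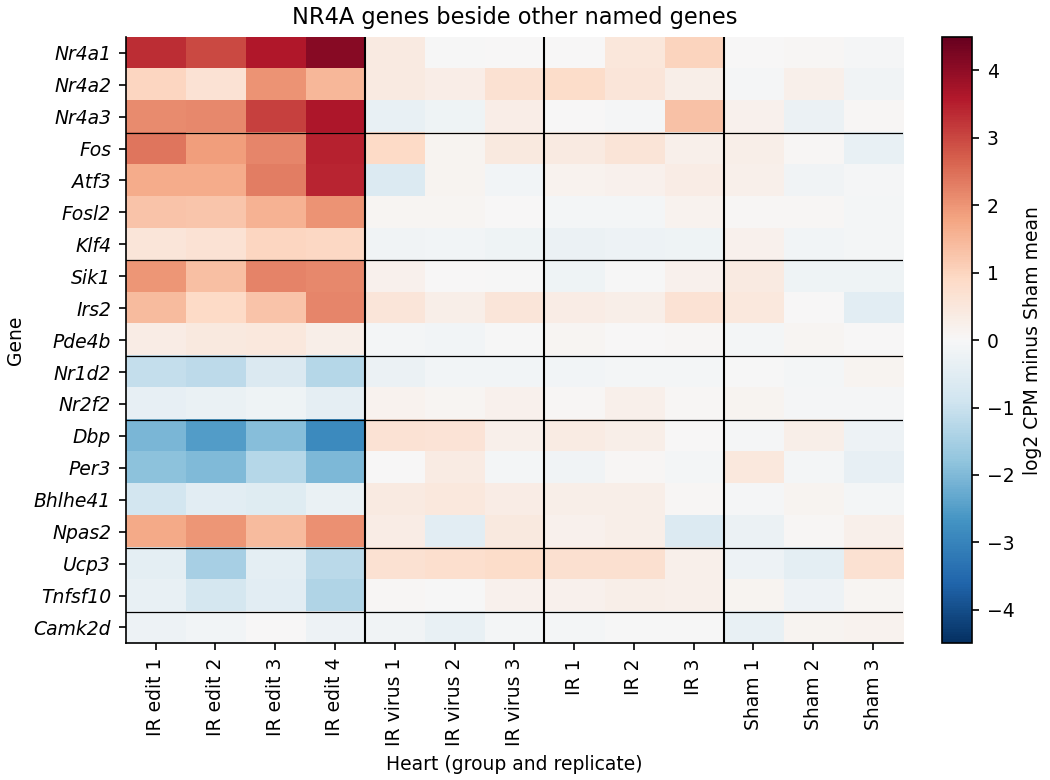
Difference of log2 CPM (prior count 2) from the Sham mean in each heart for the 3 NR4A genes and 16 other named genes, red for higher and blue for lower. Lines divide, from the top, NR4A, early response, cAMP and CREB target, other nuclear receptor, clock and reported NR4A target genes and Camk2d. The 4 IR edit columns lie apart from the other 9 in all rows but those of Nr4a2 and Camk2d, for Ucp3 only narrowly (-0.44 against -0.43). Apart from the NR4A genes and Camk2d, the rows were picked among genes called in comparisons with IR edit hearts. Their separation is therefore largely set by that choice.

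Summed macrophage, endothelial, cardiomyocyte and T cell markers overlapped between IR edit hearts and each other group, while summed mural markers (pericytes and smooth muscle) did not overlap between IR edit and the other IR groups. The 7 mural markers summed to 870 to 987 CPM in IR edit, 1000 to 1088 in IR virus, 1070 to 1190 in IR and 950 to 1135 in Sham. Against IR virus, IR edit hearts also lay apart in the sums of 3 lists of low level. These were B cell (1.56 to 2.2 CPM in IR edit, 0.916 to 1.43 in IR virus), neutrophil (1.93 to 2.78 and 1.3 to 1.63) and mast cell markers (7.4 to 10.2 and 10.3 to 11.3). The B cell sums of IR edit hearts also lay above those of Sham hearts (0.947 to 1.32 CPM). No share over all genes was set beside these separations of sums. Ly6g, a neutrophil marker, was at 0 in all hearts. The part of mural, B cell, neutrophil and mast cell content in the NR4A levels was not tested. The 8 macrophage and monocyte markers summed to 205 to 286 CPM in IR edit, 251 to 261 in IR virus, 248 to 256 in IR and 182 to 277 in Sham. The 7 endothelial markers summed to 862 to 965 CPM in IR edit, 888 to 936 in IR virus, 900 to 1046 in IR and 882 to 965 in Sham, and the 7 cardiomyocyte markers to 37210 to 44382, 41388 to 44624, 39324 to 41484 and 39770 to 47782 CPM. T cell markers summed to 1.34 to 2.63 CPM in IR edit, 1.6 to 2.35 in IR virus, 2 to 2.55 in IR and 1.81 to 1.85 in Sham, with Cd3e and Cd3d at 0 in some hearts. In IR edit against IR virus 0 of the tested markers of these 4 lists passed in edgeR, where 0.962% of all genes rose and 1.06% fell. DESeq2 called 0 of them, and 0 had an unadjusted p under 0.05. Against IR 1 endothelial marker, Emcn, fell by 0.36 on the log2 scale, where 0.637% of all genes fell. Against Sham, where 4.61% of all genes rose, 4 of 7 fibroblast markers rose in IR edit. These were Col1a1 by 1.10, Col1a2 by 0.78, Gsn by 0.49 and Pdgfra by 0.34 on the log2 scale. The 7 fibroblast markers summed to 1530 to 2172 CPM in IR edit, 1809 to 2146 in IR virus, 1599 to 2012 in IR and 1339 to 1450 in Sham. Against IR virus the fibroblast sums overlapped and 0 of 7 markers passed in edgeR or DESeq2. The part of fibroblast content in the NR4A levels was not tested. In the other 8 marker lists (mural, B cell, neutrophil, mast cell, adipocyte, neuron and glia, skeletal muscle and red blood cell), 0 markers passed in edgeR in IR edit against IR virus or IR. DESeq2 called 2 mural markers lower against IR virus and 1 against IR, where it called 493 and 427 genes in either direction. In those 8 lists 4 markers in each comparison had an unadjusted p under 0.05, with no share over all genes taken. Against Sham, 1 marker of those 8 lists rose and 1 fell in edgeR, where 4.61% of all genes rose and 3.40% fell. Acta1, an actin shared by skeletal and stressed heart muscle, rose by 3.20 ± 0.554. Kcnj8, a potassium channel of pericytes, fell by 0.36 on the log2 scale.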

How the data were processed

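RNA from 13 whole mouse hearts in 4 groups, read from the sample titles, was sequenced as 1 library each. The authors deposited raw read counts per gene symbol. The submitters' processing notes name build mm10 and list HISAT2 2.1.0, featureCounts 1.6.2, Trimmomatic 0.39 and FastQC 0.11.8. Neither the annotation nor the strandedness of the authors' counting is stated in the labels used.

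Genes were kept by filterByExpr (minimum count 10) and scaled with TMM. A group-means model over the 13 libraries was tested with edgeR 4.0.16 in R 4.3.3 (quasi-likelihood, Benjamini-Hochberg over 15690 genes, threshold 0.05), after the script had been tested on simulated data. DESeq2 1.42.0, other scaling, filters, dispersion, sample sets and a block were alternatives.

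The members, the 7 gene lists and the 13 marker lists were chosen with earlier results of these data known. Named genes are, per list, up to 4 called genes, lowest p first, in IR edit against Sham and against IR virus (if none was called, the one of lowest p), at most 2 in other comparisons, and the 6 nearest profiles per member. Fosl1 and the called fibroblast, endothelial, mural and skeletal muscle markers were named after their values were seen. All 3 members matched the RefSeq promoter table by symbol. Libraries of a group differed by more than counting noise (chi-square over degrees of freedom 4.65 to 53.8).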

Additional observations from a re-analysis of the deposited data

Results flagged for a closer look

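None of the 3 NR4A genes had an IR edit heart set apart from the others by Dixon's test at the 95% level, the test used for groups of 4. Among the 37 genes examined, which include the NR4A genes, 2 had such a heart, and chance alone flags about 1 in 20. Lpar3, one of the genes nearest to Nr4a1 in profile, had 5.23 CPM in IR edit replicate 1 and 3.9, 3.83 and 3.96 CPM in replicates 2 to 4, so that the gap took 0.903 of the range. Ppp3cc, the calcineurin subunit, had 23.2 CPM in IR edit replicate 4 and 26.1 CPM in each of the other 3 IR edit hearts, a gap of 0.994 of the range.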

How the results depend on the processing

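In the comparisons with IR edit hearts, the log2 fold changes of all 3 members kept their sign and moved by less than the spread between replicates under all 20 alternatives. With each library left out in turn, Nr4a1 ran from 3.36 to 3.74 against Sham and 3.21 to 3.60 against IR virus, Nr4a2 from 1.12 to 1.59 and 0.65 to 1.11, and Nr4a3 from 2.54 to 3.10 and 2.62 to 3.19. Among the other groups, 1 call changed: without a filter on low counts Nr4a1 passed in IR against Sham (0.55, adjusted p = 0.0275 in edgeR, against 0.666 with the filter). The adjusted p for it ran up to 0.893 under the other alternatives. Leaving out single libraries turned the sign of 4 values, which ran from -0.01 to 0.24 for Nr4a1 and from -0.28 to 0.06 for Nr4a3 in IR virus against Sham, from -0.24 to 0.05 for Nr4a2 in IR virus against IR, and from -0.04 to 0.82 for Nr4a3 in IR against Sham. The cause was not tested. The numbers in the titles did not pair the hearts: 3 of 18 same-numbered pairs had deviations correlated above 0.1. Each heart was also set against the hearts of each other group that held its number. In 13 of these 36 comparisons the best correlated heart had the same number. With the number as a replicate block Nr4a1 was at 3.34, Nr4a2 at 1.32 and Nr4a3 at 2.48 against Sham, and 590 genes passed, against 1257 without the block. The number of genes called in IR edit against Sham ran from 478 to 2351 with a library left out, was 246 with only the 2 groups, 2205 without a filter and 158 without both IR edit replicates 2 and 4. Against IR virus it ran from 96 to 477, beside 317, and was 1018 without a filter, 493 in DESeq2 and 90 without those 2 hearts. For IR against Sham, 2 genes passed in edgeR, 47 in DESeq2, 598 with unfiltered counts and 156 when only the 9 libraries outside IR edit were fitted. For IR virus against Sham these counts were 2, 191, 863 and 313. In the early response list the calls against Sham ran from 6 to 17, beside 16, and against IR virus from 5 to 17, beside 9. Against Sham the calls ran from 3 to 8 (beside 7) for the cAMP and CREB targets and 0 to 4 (beside 3) for the factors that control NR4A transcription. They ran from 0 to 8 (beside 3) for the reported targets and 1 to 6 (beside 3) for the other nuclear receptors. All 6 nearest genes of each member were kept with a prior count of 0.5. Nr4a2 rests on as few as 20 reads per Sham library, which limits its precision.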

Other observations

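The CRE core that stood 4 times in each NR4A window was also searched in the promoter windows of the early response list. Of its 26 genes, 20 had a window in the table, and these had 26 windows between them. By gene, 12 of the 20 had a core in at least 1 window. Of the 26 windows, several of which belong to the same gene, 15 held at least 1 core, against 20.8% of all windows, and none held 4. The GC content was not compared for these windows. The full element TGACGTCA was found in 3 of them, against 1.79% of all windows, in windows of Btg2, Dusp1 and Maff. Btg2, an antiproliferative factor, rose by 1.29 ± 0.293 on the log2 scale in IR edit against Sham, with adjusted p = 0.0171 (edgeR). Maff, a small MAF factor, also passed against Sham. Dusp1, a phosphatase of MAP kinases, rose by 0.44 ± 0.127 against Sham (adjusted p = 0.0459, edgeR). Fosl2, which rose with the smallest p of the list, had no core in its window. These 4 genes are given for their windows, which were looked at after the values were known, and a match of letters says nothing of binding.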
